A study of Homo sapiens with 18 samples.

Results

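KM12 is an established colorectal cancer cell line, and it was 1 of 18 lines labelled CRC whose RNA was hybridised once each to a human whole-transcriptome array. Its array was picked by the cell line label and compared with the arrays of the other 17 lines: CAR1, CL40, COLO320HSR, HCT116, HT55, HUTU80, LS180, LS513, MDST8, NCIH716, OUMS23, RCM1, RKO, SNUC1, SW1463, SW48 and SW948. KM12 and 7 others (COLO320HSR, HCT116, LS513, MDST8, NCIH716, RCM1 and SNUC1) grew in RPMI medium with added glucose and sodium pyruvate, and the other 10 lines grew in DMEM/F-12; serum and antibiotics were common to all cultures. No line was treated, no line had a second array, and each line can stand only for itself, so every comparison here is a description of single arrays with no test and no p-value.

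Values are log2 intensities, on which 1 unit is a 2-fold and 2 units a 4-fold difference. Each gene was read from 1 probe set, the one with the highest mean, which gave 19774 genes. A background level of 3.70 was set from 44 genes that the colon is not known to use, and the 16221 genes above it in at least 1 line were compared. Values under that level were raised to it before differences were taken, so a fold against such a value is a lower bound ("at least"). The array median was 3.67 in KM12, in a range of 3.65 to 3.69 over all lines, and KM12 had 11913 genes above background, against 11779 to 12151 in the other lines.

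Colorectal cancers arise from the epithelium of the crypts, where stem cells kept by WNT signalling give rise to absorptive enterocytes and to mucus-secreting goblet cells. Cancer lines keep parts of these programmes to different degrees, and may also use genes of the stomach or of mesenchymal cells. Genes of one family often sit side by side on a chromosome: HOXB genes give positional identity along the body axis, IFITM proteins sit in membranes and hinder virus entry, and metallothioneins are small cysteine-rich proteins that bind zinc, copper and cadmium. Such neighbours can share control regions and chromatin state.

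The genes proposed as marks of the line were checked first. THBS2, a secreted matrix glycoprotein of the thrombospondin family, was 11.55 in KM12, and the lowest, median and highest of the other 17 lines were 2.94 (NCIH716), 3.28 and 3.56 (HUTU80). CLDN10, a tight junction claudin, was 8.19 in KM12, against 3.12 (MDST8), a median of 3.33 and 3.74 (RKO). Both were far above every other line, although a second CLDN10 probe set showed a difference of 0.00. PPARG, the nuclear receptor that drives lipid storage genes and is abundant in colonic epithelium, was 9.99 in KM12, against 2.79 (RKO), a median of 7.61 and 9.91 (SW948); KM12 was the top line, but by 0.08. The epithelial genes CDH1 and EPCAM, the E-cadherin and a surface adhesion protein of epithelia, were 10.15 and 12.06 in KM12, near the medians of 10.77 and 11.85 in the other lines. ZEB1, ZEB2 and TWIST1, which repress epithelial genes in mesenchymal cells, were under background in KM12.

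A gene was called higher or lower if KM12 lay at least 2 log2 units from the median of the other 17 lines, and highest or lowest if it lay at least 1 unit beyond every one of them. KM12 had 264 higher genes (1.63% of those compared), 229 lower genes (1.41%), 30 highest genes (0.185%) and 25 lowest genes (0.154%). The shares of 1.63% and 1.41% are the ones to set beside counts of list members called higher or lower. Counted the same way for each line, KM12 had the fewest higher genes of the 18, and stood at rank 11 for lower, 16 for highest (tied with LS180) and 9 for lowest genes. TRPS1 (2.0) and ZNF605 (1.98) were just inside and just outside the limit for higher genes, and ATXN1 (−2.0) and EGFR (−1.99) for lower genes. ABHD12B (1.00) and CDKN2A (0.99) flanked the limit for highest genes, and DUSP5 (1.00) and RXRA (0.99) that for lowest genes. Some called genes had another probe set at least 2 units above background, in KM12 for higher genes and in the median of the other lines for lower genes. The brightest such set moved the same way by at least 1 unit for 83 of 85 higher and 61 of 64 lower genes. None moved the opposite way. Dimmer probe sets were left out, which favours agreement, so these counts are no independent check of the calls.

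The genes with the widest gap above the rest of the panel were led by THBS2, whose difference of 7.85 is at least 231-fold. A2ML1, an inhibitor of proteases in squamous epithelia, was 7.77 in KM12, against 2.79 (HCT116), a median of 3.02 and 3.32 (CAR1). The long noncoding RNA AFAP1-AS1 was 8.01 in KM12, against 3.08 (SW1463), a median of 3.41 and 3.97 (RKO). In all 17 other lines THBS2 and A2ML1 were at or under background, and a second A2ML1 probe set differed by 0.16. PLAAT5, a phospholipid acyltransferase, was 7.55 in KM12 and at most 4.23 elsewhere (CAR1). SYNPR, a membrane protein of synaptic vesicles, was 6.44 in KM12 and at most 3.32 elsewhere (MDST8), again with every other line at background.

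Other genes with a gap were also measured in a few more lines. HSD17B2, which inactivates oestradiol and testosterone, was 9.51 in KM12, against 2.70 (HCT116), a median of 3.0 and 6.86 (MDST8). SMOC1, a calcium-binding matrix protein, was 8.64 in KM12, against 3.13 (HUTU80), a median of 3.37 and 6.35 (CAR1). SULF2, which trims sulfate from heparan sulfate chains outside the cell, was 9.54 in KM12, against 2.68 (COLO320HSR), a median of 5.23 and 8.31 (LS513). For each of the 3 the KM12 value was above the whole range of the panel. SNHG12, a host gene of small nucleolar RNAs, was bright in every line, yet its 11.31 in KM12 was still above 8.32 (SW948), a median of 9.08 and 10.05 (HCT116). EGR4, an early growth response transcription factor, was 7.5 in KM12 and at most 5.79 elsewhere (LS513), and other EGR4 probe sets showed differences as low as 0.00. ZNF615 (8.06), LINC00326 (6.35), DOC2A (6.55), XNDC1N (6.26), PLA2G10 (6.36), SOSTDC1 (5.79), STK31 (7.13) and PART1 (5.57) completed the genes named for this gap with REG4, which is described with the goblet genes. Among these, SOSTDC1 encodes a secreted antagonist of BMP and WNT signals, and PLA2G10 a secreted phospholipase.

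**Figure D1:**
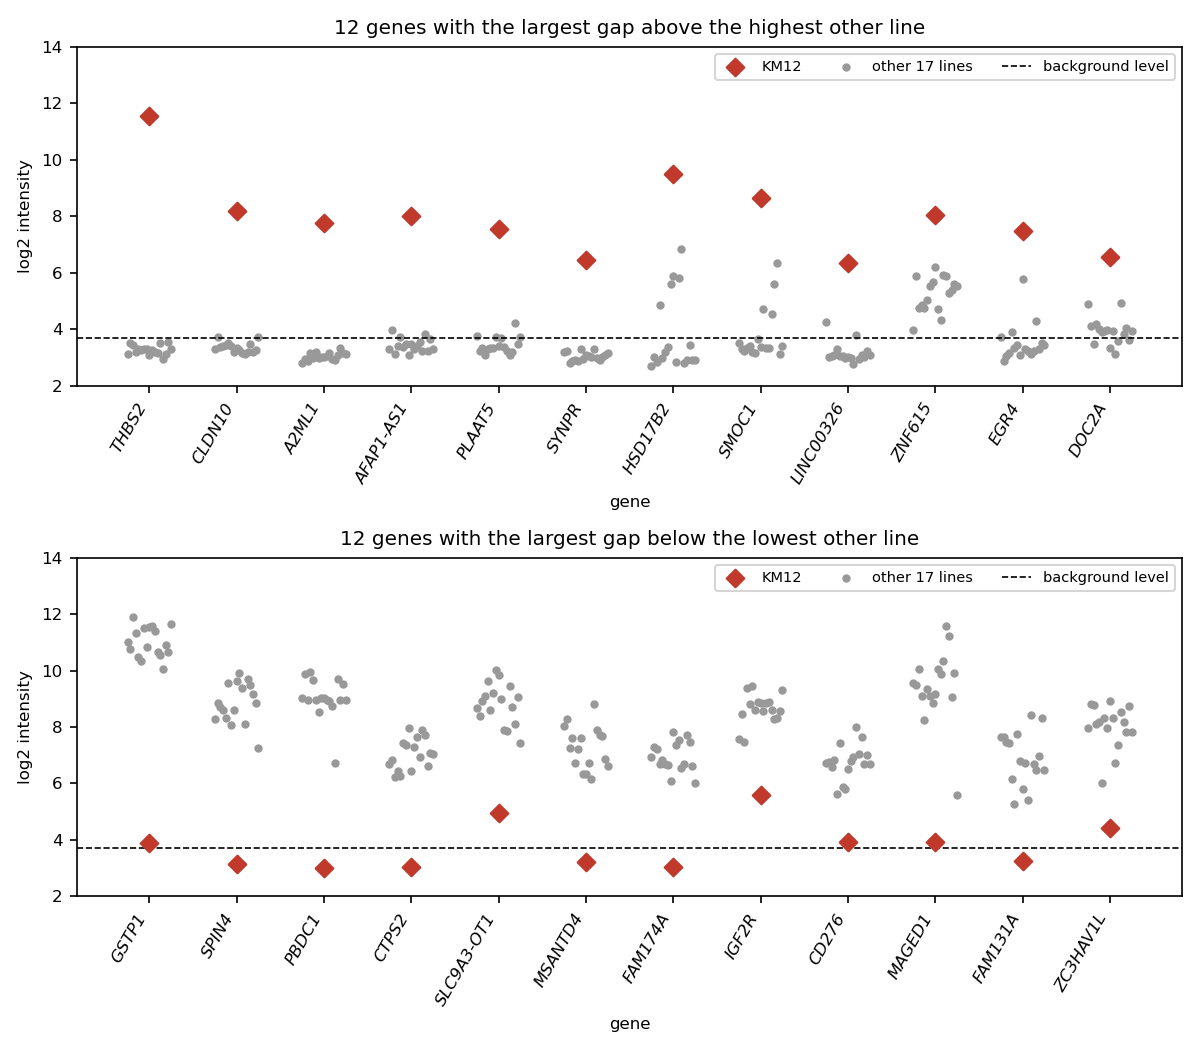
Log2 intensity (vertical axis) of the 12 genes with the widest gap above (top) and below (bottom) all other lines. Red diamonds are KM12, grey points the other 17 lines and the dashed line the background level of 3.70; THBS2 at 11.55 and GSTP1 at 3.88 in KM12 stand farthest from the panel.

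Goblet cell genes formed the list with the largest median difference upward in KM12. Of 14 members compared, 6 were higher and 0 lower, with a median of 1.00, against 0 over all genes compared. By this median KM12 stood only at rank 6 among all lines. Above it were NCIH716 (3.47), LS180 (3.08), LS513 (2.93), CL40 (2.24) and SW948 (2.09). REG4, a secreted lectin of goblet and enteroendocrine cells, was 11.97 in KM12, against 3.22 (HUTU80), a median of 3.67 and 10.43 (LS513). SPINK4, a small secreted peptide of goblet cells, was 11.88 in KM12, against 3.0 (RKO), a median of 3.60 and 12.20 (LS513). REG4 was above the whole panel and SPINK4 was second to LS513, so a high level of these genes was shared with a few lines. AGR2 and AGR3, disulfide isomerases of the secretory pathway, were 12.95 and 10.35 in KM12, against medians of 8.06 and 3.79 in the other lines, and both overlapped the panel. CREB3L1, a transcription factor of secretory cells, and ST6GALNAC1, a mucin sialyltransferase, were 6.61 and 6.77 in KM12, against medians of 3.44 and 3.2. The goblet mucin MUC2 was 3.18 in KM12 and CLCA1 3.07, both under background, and ATOH1, the transcription factor that specifies secretory cells, was 3.72 in KM12, against a median of 3.65. In RNA from whole cultures, fewer cells using a gene and less of its RNA per cell cannot be told apart.

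Of 12 gastric genes compared, 5 were higher and 0 lower, with a median of 0.53. TFF1, a trefoil peptide of gastric surface mucus, was 10.82 in KM12, against 3.34 (CAR1), a median of 3.78 and 10.19 (LS513), and KM12 was the top line by 0.63. TFF2, its relative from mucous neck cells, was 7.87 in KM12, against 3.42 (NCIH716), a median of 4.42 and 9.93 (CL40). SOX2, a transcription factor of the foregut, was 8.05 in KM12, against 2.89 (LS513), a median of 3.24 and 11.06 (HUTU80). For TFF2 and SOX2 other lines were higher still. GATA6, a zinc finger factor of the gut, was 9.77 in KM12, above the 8.86 of SW1463, and the aspartic protease CTSE was 6.26, within the panel. The gastric mucin MUC5AC was 4.23 in KM12, 0.53 above the floor, and the gastric genes MUC6, GKN1 and CLDN18 were under background.

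Among 22 enterocyte genes, 5 were higher and 0 lower (1.63% and 1.41% over all genes compared). The median was 0, as over all genes compared. GPX2, the gut glutathione peroxidase, was 11.53 in KM12, against 2.89 (COLO320HSR), a median of 5.53 and 12.53 (SNUC1), and its second probe set gave 1.27, against 5.99 for the one used. LGALS4, a galectin of the brush border, was 10.39 in KM12, against a median of 5.30, and the carbonic anhydrase CA2 was 9.65, the top value of the panel, against a median of 5.57. CDX1 (7.15 in KM12, median 4.83) and CEACAM5 (6.68, median 4.09) were the other higher genes. Apart from CA2, these genes were mid-panel in KM12: it stood at rank 9 for LGALS4, CDX1 and CEACAM5, and at rank 7 for GPX2. The highest values were 12.52 (SW948) for LGALS4, 9.25 (HT55) for CDX1 and 12.26 (SNUC1) for CEACAM5. By the median of the list KM12 was also at rank 9 among all lines. The intestinal transcription factor CDX2 was 5.37 in KM12, against a median of 7.06, and CDH17, the liver-intestine cadherin, was 9.26, against 10.08, neither past the limit. Other genes with a large difference from the median were also high in some other lines. CALB1, a calcium buffer, was 11.99 in KM12, against 2.91 (HCT116), a median of 3.88 and 11.06 (CAR1). IGFBP3, a carrier of insulin-like growth factors, was 10.61 in KM12, against 3.35 (COLO320HSR), a median of 3.98 and 12.89 (CAR1), while PEG10, an imprinted gene of retrotransposon origin, was 10.57 and was exceeded by NCIH716 (12.18), and CD109, a membrane-anchored co-receptor of TGF-beta, was 10.43 and was exceeded by MDST8 (10.85). LYZ, lysozyme, stood in the list of leukocyte markers and was 11.35 in KM12, against 2.85 (OUMS23), a median of 4.85 and 11.51 (SW948); gut epithelium also secretes it, the defining leukocyte gene PTPRC was under background at 2.98, and LYZ was the 1 higher member of 9.

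**Figure D2:**
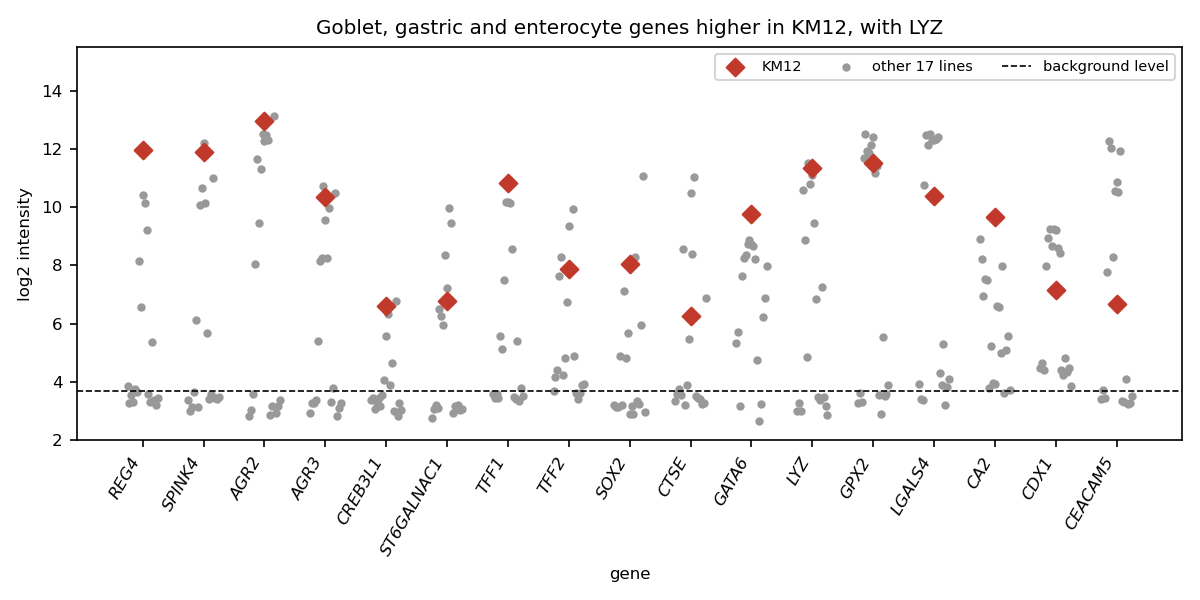
Log2 intensity (vertical axis) of the goblet, gastric and enterocyte genes called higher in KM12, with LYZ (horizontal axis). Red diamonds are KM12, grey points the other 17 lines and the dashed line the background level; LS513 was above KM12 for SPINK4 and NCIH716 for AGR2, while REG4, TFF1, GATA6 and CA2 were highest in KM12.

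WNT targets and crypt-base genes moved in both directions, with 3 of 18 higher, 2 lower and a median of −0.58. LGR5, the receptor that marks crypt stem cells, was 9.15 in KM12, against 2.63 (MDST8), a median of 4.47 and 9.90 (LS180). SMOC2, a matrix protein of the stem cell zone, was 8.35 in KM12, against 2.69 (RKO), a median of 3.03 and 8.30 (LS180). AXIN2, a feedback inhibitor of WNT signalling, was 4.95 in KM12, against 3.92 (NCIH716), a median of 9.38 and 11.44 (HT55). KM12 was thus at the upper end of the panel for LGR5 and SMOC2 and at the lower end for AXIN2, with 2 other lines at or under it. The 4 probe sets of AXIN2 gave differences of −4.43 to −0.76. LEF1, a transcription factor of the pathway, was higher (8.01, median 5.95), though by 0.39 against the 7 other RPMI lines, and RNF43, a ligase that removes WNT receptors, was lower (6.42, median 8.60).

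Of the epithelial adhesion genes, 0 of 21 were called in either direction, with a median of −0.26, and all 21 were above background in KM12. The members farthest under the median were the desmosome protein DSP (9.58 in KM12, median 11.20) and the claudins CLDN4 (8.60, median 9.61) and CLDN3 (7.89, median 8.87). Against the 7 other RPMI lines alone, CLDN3 and CLDN4 were above the median, by 2.07 and 0.28, and DSP was below it, at −0.92. In the mesenchymal list 4 of 22 were higher and 2 lower (1.63% and 1.41% over all genes compared). VIM, the intermediate filament vimentin, was 8.86 in KM12, against 3.04 (SW948), a median of 3.44 and 13.19 (MDST8). The caveolae genes CAV1 (8.86, median 6.56) and CAV2 (9.88, median 7.65) and the matrix protein TNC (6.63, median 3.2) were the other higher members. CALD1, an actin-binding protein, was at background (2.74 in KM12, median 6.30), as was the median of the 7 other RPMI lines (3.03), and the tubulin gene TUBA1A was 6.11, against a median of 8.81. THBS1, the close relative of THBS2, was 3.06 in KM12, the lowest value of the panel and under background, against a median of 5.29 in the other lines.

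In the list of PPARG and lipid genes, which holds PPARG itself, 2 of 16 compared were higher (PPARG and PPARGC1A), 1 was lower (RXRA) and the median was 0.00. RXRA, the partner receptor of PPARG, was 4.73 in KM12, against 5.73 (MDST8), a median of 7.0 and 8.14 (HT55), below every other line. PPARGC1A, a coactivator, was 6.02 in KM12, against a median of 3.42. The PPARG targets FABP4, CD36 and ADIPOQ were under background in KM12, and also at or under it in 15, 13 and 17 of the other lines. PLIN2 was 8.0 against a median of 8.32, and CPT1A was 9.55 against 9.06. Receptor tyrosine kinase genes of the TRK family and their adaptors gave 1 higher gene of 9, NTRK2, at 5.82 in KM12, against 2.84 (OUMS23), a median of 3.15 and 8.52 (SNUC1). Genes that report MAPK signalling gave 2 higher and 1 lower of 19, with a median of 0.72, at rank 3 of the 18 lines. DUSP4, a phosphatase induced by ERK, was 11.18 in KM12, against a median of 8.54, and ETV1 was 7.38, against 4.53. ETV1 was not higher than the 7 other lines in RPMI, whose median was 8.02, a difference of −0.63. DUSP5, the other ERK phosphatase called, was lower than in any other line, with 3.26 in KM12, against 4.70 (SW948), a median of 7.51 and 10.24 (RCM1).

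GSTP1 was the gene with the widest gap below the panel. It encodes a glutathione S-transferase that conjugates electrophiles and drugs to glutathione, and its promoter is known for CpG methylation in prostate cancer. GSTP1 was 3.88 in KM12, against 10.05 (NCIH716), a median of 10.89 and 11.90 (SW48). The gene was among the brighter ones in all 17 other lines and near background in KM12, 129-fold under the median and 6.17 log2 units under the next line; 1 probe set read it. The RefSeq promoter, 250 bases before to 50 after the start (GRCh38.p14, plus strand, chr11:67583562-67583861), is shown because it is rich in CpG, here in capitals; it holds 36, against a median of 14 over 35114 human promoters of that length. Promoters of other low genes varied in this count: 37 for MT2A, 29 for SPIN4, 26 for MT1X, 15 for PBDC1, 10 for TCEAL9, 8 for IFITM3 and 3 for IFITM1. MAGED1 and BEX3, with several starts, held 10 to 20 and 7 to 32. DNA methylation was not analysed here.
GSTP1: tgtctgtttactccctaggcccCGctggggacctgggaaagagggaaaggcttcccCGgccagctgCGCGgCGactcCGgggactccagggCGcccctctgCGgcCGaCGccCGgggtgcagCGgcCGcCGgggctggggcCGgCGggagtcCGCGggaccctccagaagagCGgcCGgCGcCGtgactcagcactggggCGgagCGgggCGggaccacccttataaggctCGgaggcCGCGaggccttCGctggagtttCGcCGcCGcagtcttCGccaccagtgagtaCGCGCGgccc

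Several other genes were below every other line in KM12. SPIN4, a spindlin that reads histone marks, was 3.16 in KM12, against 7.24 (OUMS23), a median of 8.83 and 9.93 (LS180), at least 35.2-fold lower. PBDC1 was 3.02 in KM12, against 6.73 (COLO320HSR), a median of 8.96 and 9.95 (RCM1). CTPS2, a CTP synthase, was 3.05 in KM12, against 6.23 (SW48), a median of 7.05 and 7.97 (SW1463). None of these 3 X-linked genes was above background in KM12. MAGED1, an adaptor of the MAGE family, was 3.91 in KM12, against 5.59 (OUMS23), a median of 9.47 and 11.59 (COLO320HSR). PRXL2A, a peroxiredoxin-like antioxidant protein, was 4.02 in KM12, against 5.43 (LS513), a median of 9.84 and 11.11 (NCIH716). IGF2R, the receptor that clears IGF2 and sorts lysosomal enzymes, was 5.59 in KM12, against 7.45 (SW48), a median of 8.60 and 9.45 (HT55). KM12 was outside the range of the panel for all 3.

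The immune ligand gene CD276 was 3.93 in KM12, against 5.61 (SNUC1), a median of 6.76 and 8.01 (MDST8), and other CD276 probe sets showed differences up to 0.00. WIPI1, a phosphoinositide-binding protein of autophagy, was 3.66 in KM12, against 5.11 (COLO320HSR), a median of 7.02 and 9.14 (CAR1). SLC9A3-OT1 (4.94), MSANTD4 (3.22), FAM174A (3.03), FAM131A (3.24), ZC3HAV1L (4.43), SLC5A3 (6.65), IFNGR2 (6.33), TRIO (5.82), PJA1 (4.53), PSMG4 (6.93) and ZNF407-AS1 (5.32) were likewise below every other line. TRIO and PSMG4 were read by other probe sets with differences up to 0.00 and 0.11. Some genes far under the median were low in a few other lines too. HLTF, a DNA translocase of the SWI/SNF family, was 3.22 in KM12 and 3.23 in RKO, against a median of 9.10, with 3 other lines at or under background. CBR1, a carbonyl reductase, was 3.30 in KM12 and 2.97 in HCT116, against a median of 9.68. SERPINE2, an inhibitor of serine proteases, was 3.39 in KM12 and 3.74 in RKO, against a median of 9.73, but another probe set of it differed by −0.75.

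In the HOXB cluster on chromosome 17, 4 of 11 genes compared were lower in KM12, against 1.41% of all genes compared. The median difference of the cluster was −1.26. HOXB6 was 3.94 in KM12, against 3.22 (OUMS23), a median of 8.97 and 9.88 (HUTU80). HOXB3 was 4.25 in KM12, against 3.58 (LS180), a median of 8.30 and 9.76 (RCM1). HOXB8 was 3.96 in KM12, against 3.81 (LS180), a median of 7.89 and 9.53 (SW48). Each of these was near the bottom of the panel but overlapped it. HOXB9 was 3.40 in KM12, under background, against 3.29 (OUMS23), a median of 7.61 and 8.86 (SW48). The second HOXB6 probe set showed a difference of −0.13, and other HOXB3 and HOXB8 probe sets reached 0.00. HOXB7, between HOXB6 and HOXB8, was 7.29 in KM12, against a median of 8.55, and so remained well above background in the middle of the cluster. HOXB2 (3.96, median 5.45), HOXB4 (4.71, median 5.42), HOXB5 (5.26, median 6.19) and HOXB13 (3.30, median 4.62) were below the median without reaching the limit. HOXB1 was at background in every line.

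The nearest measured neighbours of the cluster, SKAP1 (4.13, median 4.33) and TTLL6 (3.11, median 3.08), were dim in KM12 and in most lines. Beyond them lay CBX1 and SNX11 on one side (9.74 and 6.81 in KM12, medians 10.25 and 6.59) and CALCOCO2 and ATP5MC1 on the other (8.42 and 9.65 in KM12, medians 8.97 and 9.54), with CALCOCO2 at rank 17 of 18. By the same limit LS180 had 5 lower HOXB genes and OUMS23 had 4, so the pattern was shared with these lines. In the HOXC cluster 0 of 9 genes were called, and in the HOXD cluster HOXD1 (6.90 in KM12, median 3.43) and HOXD8 (5.89, median 3.65) were higher and none was lower. Against the 7 other RPMI lines alone, HOXB3, HOXB6, HOXB8 and HOXB9 were below all 7.

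**Figure D3:**
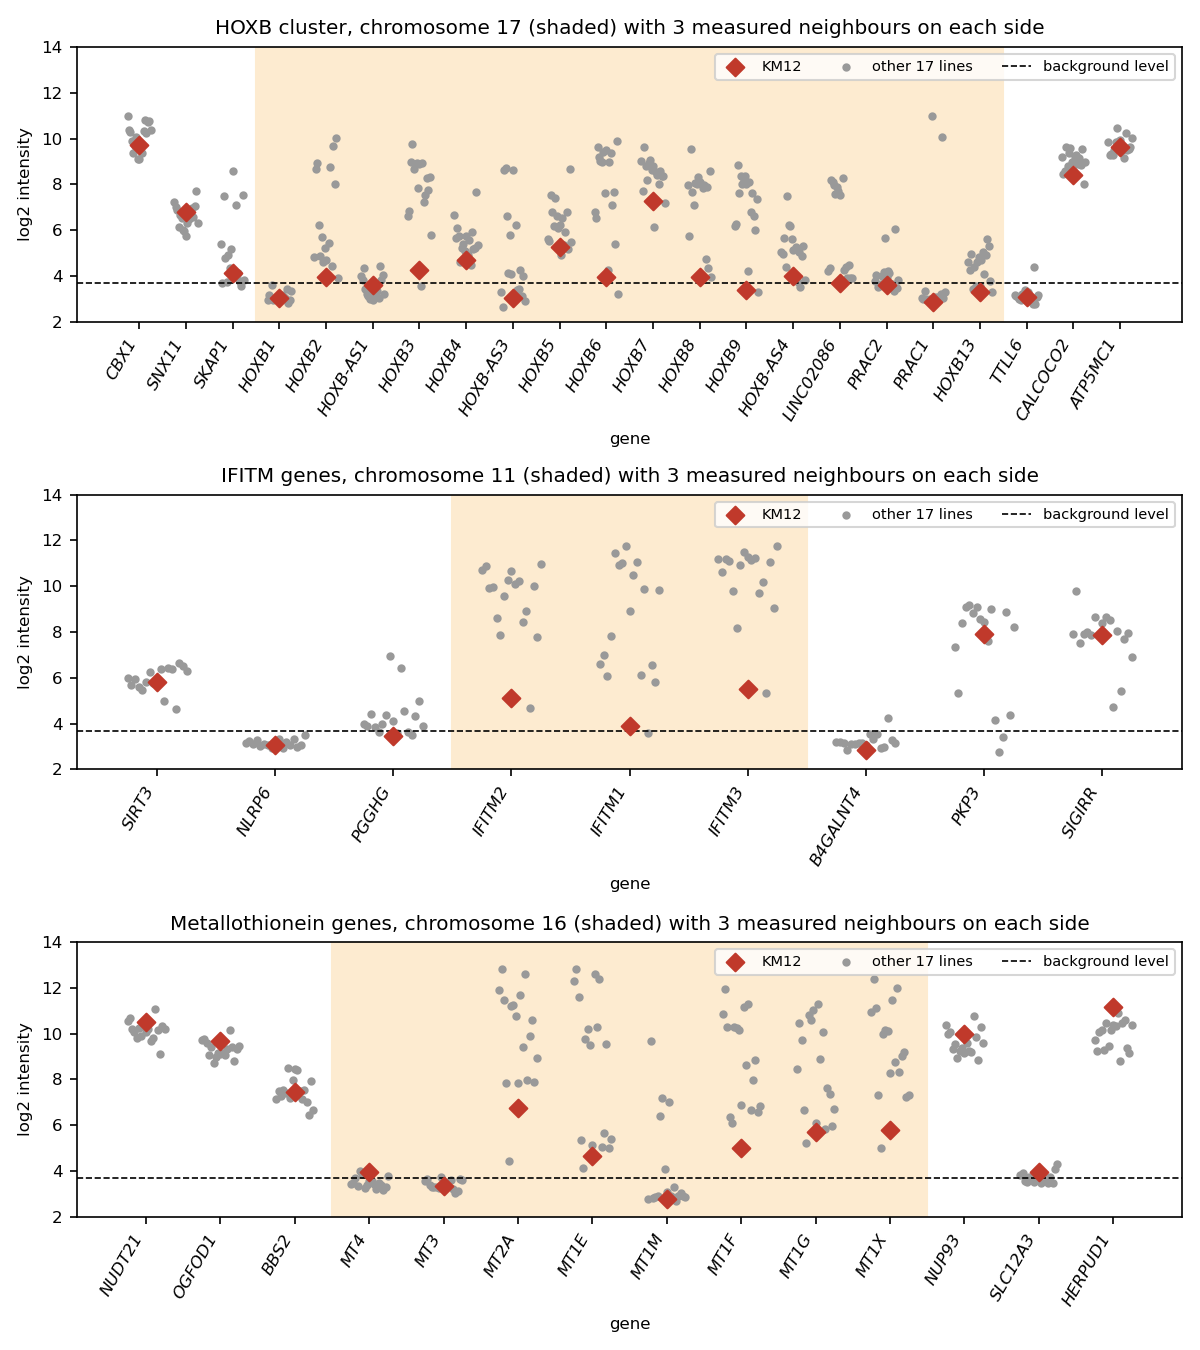
Log2 intensity (vertical axis) of the HOXB, IFITM and metallothionein genes in chromosomal order (shaded) with their nearest measured neighbours. Red diamonds are KM12, grey points the other 17 lines and the dashed line the background level. KM12 lay low at many shaded genes, as for IFITM3 at 5.53, but not at all of them. MT4 (3.96) stood at rank 2 and MT3 (3.36) at rank 10 of the 18 lines. At bright neighbours such as SIGIRR (7.85) and NUDT21 (10.49) KM12 lay near the other lines.

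IFITM1, IFITM2 and IFITM3, adjacent on chromosome 11, were all lower in KM12. IFITM1 was 3.89 in KM12, against 3.59 (NCIH716), a median of 8.93 and 11.75 (SW1463). IFITM2 was 5.10 in KM12, against 4.67 (NCIH716), a median of 9.97 and 10.99 (OUMS23). IFITM3 was 5.53 in KM12, against 5.36 (NCIH716), a median of 11.07 and 11.73 (OUMS23). NCIH716 was the only line below KM12 for each of the 3, and the next line up was at 5.81, 7.78 and 8.16 for IFITM1, IFITM2 and IFITM3. The differences were −5.04, −4.86 and −5.54 against all other lines, and −3.94, −3.81 and −4.67 against the 7 other RPMI lines. HUTU80 also had all 3 lower by the limit. IFITM10, which lies apart from them, was 4.35 in KM12, against a median of 3.49, and the neighbours SIRT3 (5.80, median 5.93), PKP3 (7.89, median 8.40) and SIGIRR (7.85, median 7.93) were within the panel. The nearest neighbours were PGGHG (3.46, median 4.0, the bottom of the 18 lines and under background) and B4GALNT4 (2.85, median 3.14), at background in KM12 and most lines.

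The probe sets read here for IFITM1, IFITM2 and IFITM3 are of a kind (x_at) whose probes may bind related transcripts, so the 3 values are not fully separate. IFITM1 has a probe set of another kind, and its difference was −4.53. The promoters of IFITM1 (chr11:313790-314089, plus strand) and IFITM3 (chr11:320811-321110, minus strand) from RefSeq, GRCh38.p14, are shown because the genes are known interferon targets. Capitals mark GAAA, any 2 bases and GAAA, the core of the interferon-stimulated response element, searched on both strands. Each promoter holds 2, and 3.57% of 35114 promoters hold at least 1. A match of letters is not evidence of binding.
IFITM1: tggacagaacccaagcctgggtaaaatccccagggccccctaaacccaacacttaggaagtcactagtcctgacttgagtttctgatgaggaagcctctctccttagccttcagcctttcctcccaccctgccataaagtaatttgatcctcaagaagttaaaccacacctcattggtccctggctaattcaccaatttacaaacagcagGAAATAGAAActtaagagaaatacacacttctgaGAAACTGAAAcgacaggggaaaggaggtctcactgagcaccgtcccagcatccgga
IFITM3: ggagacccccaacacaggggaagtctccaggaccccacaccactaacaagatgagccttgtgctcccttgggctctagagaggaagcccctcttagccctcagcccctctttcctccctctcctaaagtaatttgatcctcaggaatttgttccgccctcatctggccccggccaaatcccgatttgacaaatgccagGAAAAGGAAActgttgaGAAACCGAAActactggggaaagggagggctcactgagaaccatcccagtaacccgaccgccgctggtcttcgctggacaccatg

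Of 28 other genes of the interferon response compared, 0 were higher and 0 lower (1.41% of all genes compared were lower), with a median of −0.09. The list did not hold the receptor chain IFNGR2, which was lower by the limit (6.33 in KM12, median 8.88). By the median of the list KM12 stood at rank 16 of the 18 lines, and it was the bottom line for 3 members (OASL, XAF1 and IFNAR2). For 14 members the median of the other lines was less than 2 units above background, so that a gene could not be called lower. ISG15, a ubiquitin-like modifier, was 7.52 in KM12, against 5.56, a median of 7.69 and 10.60 in the other lines, and IFI35 was 8.57, against a median of 7.17. OAS1, a sensor of viral RNA, was 5.79, against a median of 7.74, short of the limit at −1.95. Several members, among them IFIT1 (3.16) and MX1 (3.64), were under background in KM12 and had medians of 3.52 and 4.19 elsewhere. Of 16 genes of MHC class I presentation, 3 were lower and 0 higher, with a median of −0.71. HLA-C was 8.15 in KM12, against 5.55 (COLO320HSR), a median of 10.94 and 12.45 (LS513), HLA-F was 6.87, against a median of 9.37, and HLA-G 7.60, against 9.86. The invariant chain of the complex, B2M, was 12.53 in KM12, against a median of 12.79. Class I genes resemble one another in sequence, so their probe sets may share signal.

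Of 9 metallothionein genes compared, 6 were lower in KM12, against 1.41% of all genes compared, and the median difference was −3.40. MT2A, a major form in most tissues, was 6.76 in KM12, against 4.46 (SNUC1), a median of 10.58 and 12.83 (RKO). MT1E was 4.65 in KM12, against 4.15 (SNUC1), a median of 9.53 and 12.84 (RKO). MT1F was 5.02 in KM12, against 6.11 (SNUC1), a median of 8.87 and 11.97 (RKO). MT1F was below every other line, whereas SNUC1 was below KM12 for MT2A and MT1E. MT1G (5.71, median 8.44), MT1X (5.79, median 9.19) and MT1HL1 (4.53, median 8.75), the last annotated on chromosome 1, were the other lower members, and SNUC1 was the 1 line under KM12 for these as well. MT1M, MT3 and MT4 were at or near background in KM12, as in most lines.

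Culture medium moved with the metallothionein result. Against the 7 other lines in RPMI the median difference of the list was −1.24, and MT2A differed by −1.24, MT1E by −0.72 and MT1F by −1.88. Against the 10 lines in DMEM/F-12 the same genes differed by −4.23, −5.34 and −5.19. RCM1, SNUC1, LS513 and COLO320HSR, all in RPMI, each had at least 4 lower metallothioneins, but so did HUTU80, in DMEM/F-12, with 5, and HCT116 and MDST8, in RPMI, had none. Medium and cell line cannot be told apart in this design. The 6 low genes were also read by x_at probe sets, and without that kind of probe set the median of the list was 0.00.

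**Figure D4:**
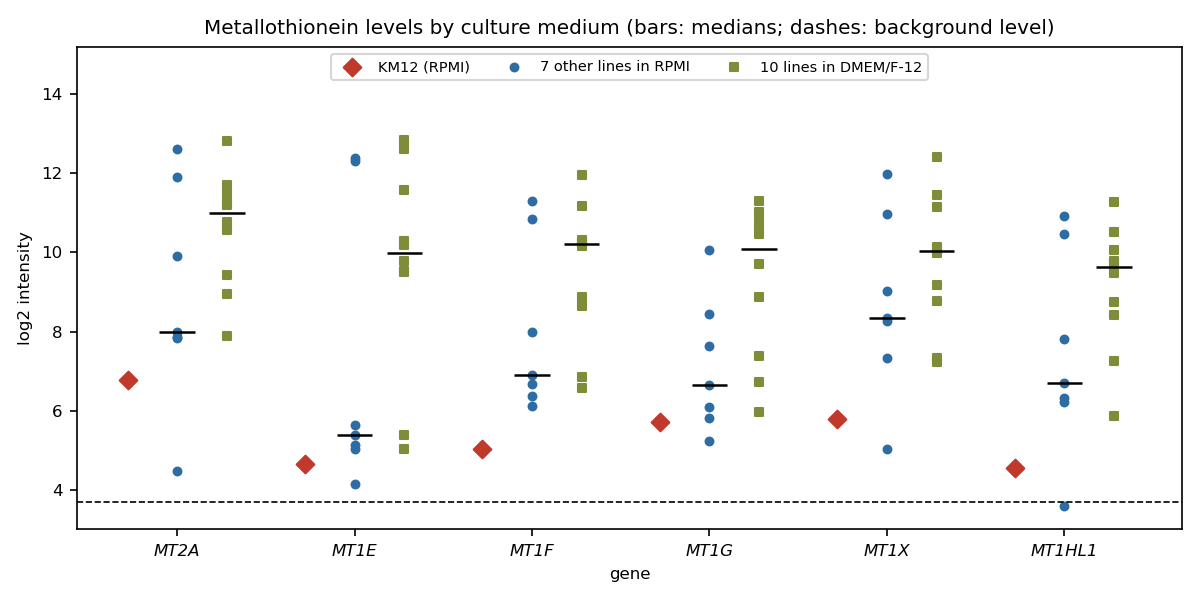
Log2 intensity (vertical axis) of 6 metallothionein genes by culture medium: KM12 (red diamonds), the 7 other lines in RPMI (blue) and the 10 lines in DMEM/F-12 (green), with medians as bars and the background level dashed. KM12 lay below the medians of both groups, and much nearer to that of the RPMI lines, as for MT1E with 4.65 in KM12, 5.37 in RPMI lines and 9.99 in DMEM/F-12 lines.

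Genes that take up, move and sense metals were not low with them: of 14 compared, 0 were called in either direction, with a median of 0.18. MTF1, the zinc-sensing transcription factor of metallothionein genes, was 6.88 in KM12, against a median of 6.67, and the zinc exporter SLC30A1 was 8.31, against 9.40. The neighbours BBS2 (7.46, median 7.49), OGFOD1 (9.68, median 9.31) and HERPUD1 (11.16, median 10.15, the top of the panel) were not low. The MT2A promoter from RefSeq (GRCh38.p14, plus strand, chr16:56608334-56608633) is shown for its metal response elements, in capitals: the core TGCACNC or TGCGCNC on either strand. It holds 8 and that of MT1X holds 4. Of 35114 promoters, 29.5% hold at least 1 and 8.60% hold 2 or more.
MT2A: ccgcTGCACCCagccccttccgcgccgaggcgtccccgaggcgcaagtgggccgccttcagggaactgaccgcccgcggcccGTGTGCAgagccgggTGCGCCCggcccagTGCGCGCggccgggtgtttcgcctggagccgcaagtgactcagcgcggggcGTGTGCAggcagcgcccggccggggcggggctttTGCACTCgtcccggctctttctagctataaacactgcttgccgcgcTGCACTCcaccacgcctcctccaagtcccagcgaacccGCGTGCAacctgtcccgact

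Low neighbours were also sought along all chromosomes, as runs of at least 3 genes in a row, each lower in KM12 by the limit. Only measured genes with a median above background in the other lines were counted. Genes between them were skipped, as was MT1M (median 2.93) between MT1E and MT1F, so a run need not be unbroken. KM12 had 4 such runs with 14 genes, and stood at rank 5 of the 18 lines; HUTU80 had the most, 11 runs. One run was IFITM2, IFITM1 and IFITM3, and one was MT2A, MT1E, MT1F, MT1G and MT1X. The others were on the X chromosome: FTX, UPRT and PBDC1, and TCEAL8, TCEAL9 and BEX3. FTX, a noncoding RNA, was 4.71 in KM12, against 3.62 (LS180), a median of 6.76 and 9.45 (RCM1), and UPRT was 3.42, against 4.48 (OUMS23), a median of 6.91 and 8.34 (COLO320HSR).

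BEX3, a small adaptor that binds the neurotrophin receptor NGFR, was 4.20 in KM12, against 3.74 (HT55), a median of 11.09 and 12.25 (NCIH716), 118-fold under the median. TCEAL9, of a family of proteins related to an elongation factor, was 3.48 in KM12, against 3.24 (OUMS23), a median of 9.08 and 10.78 (MDST8). TCEAL8 was 3.06 in KM12, against 3.18 (HUTU80), a median of 7.04 and 9.31 (NCIH716). KM12 was at or near the bottom for these 3, and at least 1 other line was as low for each.

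Of the 229 lower genes of KM12, 27 were X-linked (11.8%), as were 5 of its 25 lowest genes, while 3.36% of all genes compared were on the X chromosome. The share among lower genes was the largest of the 18 lines, and the next was 7.62% in HT55. The X chromosome was singled out after the values were seen. PUDP (3.01 in KM12, median 8.80), SH3BGRL (2.81, median 8.64) and GSPT2 (3.16, median 7.88) were further X-linked genes under background in KM12 and bright in most lines, each with at least 1 other line near background.

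**Figure D5:**
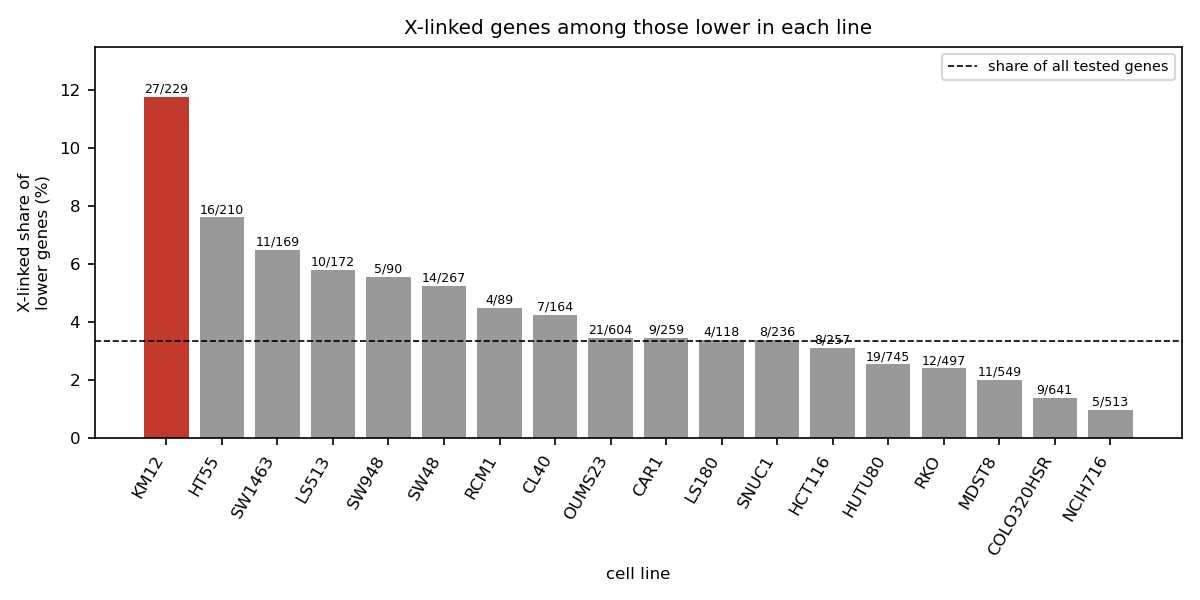
Share of X-linked genes among the genes called lower in each line (vertical axis, percent), with the counts above the bars; KM12 is red and the dashed line is the share among all genes compared, 3.36%. KM12 had 11.8% (27 of 229), and the next line, HT55, 7.62% (16 of 210).

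EPM2AIP1, which shares a two-way promoter region with a mismatch repair gene not analysed here, was 4.38 in KM12, against 2.76 (RKO), a median of 8.36 and 9.05 (RCM1), and 3 other lines were at or under background. It was the 1 lower member of 7 in the mismatch repair list, in which PMS2 (7.16, median 7.35), MSH6 (9.03, median 9.66) and MSH3 (7.98, median 7.96) were near the panel. Among 29 cell cycle genes 1 was higher, CDKN2A, an inhibitor of the kinases CDK4 and CDK6, at 10.49 in KM12, against 2.84 (LS180), a median of 7.35 and 9.49 (RCM1). Its neighbour CDKN2B was under background in KM12 at 3.58, against a median of 4.58. Claudins gave 2 higher of 17 (CLDN10, and CLDN2 at 7.54, median 3.62), matrix genes 1 higher and 1 lower of 18 (THBS2, and the collagen COL4A2 at 3.73, median 6.83). S100 proteins gave 1 of each among 14 (S100A2 at 8.97, median 6.83, and S100A13 at 6.90, median 9.51). PMEPA1 (8.59, median 5.54) was the 1 higher gene of 17 in the TGF-beta list, and SCG2 (6.56, median 3.66) the 1 higher of 10 neuroendocrine markers. The TGF-beta list as a whole lay the other way, with a median of −0.54, rank 16 of the 18 lines, though 0 members were lower by the limit. SMAD7 (4.43, median 6.33) and SMAD3 (4.96, median 6.32) were both at rank 17. No cancer-testis antigen of the 12 compared was above background in KM12, and endothelial, fibroblast and hepatocyte markers had 0 calls of 4, 9 and 8.

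Of 108 called genes named by the rules used, 14 missed the limit of 2 units against the 7 other RPMI lines alone: CALD1 (0), LEF1 (0.39), ETV1 (−0.63), MT1E (−0.72), RNF43 (−0.86), MT1G (−0.95), MT2A (−1.24), DUSP4 (1.46), CAV2 (1.52), CDKN2A (1.62), S100A2 (1.78), HOXD8 (1.81), MT1F (−1.88) and HLA-F (−1.95). Of the 65 read by several probe sets, 39 had at least 1 that missed the limit. Besides those already given, the least difference was under 1 unit in size for VIM, SOX2, TNC, CREB3L1, CALD1, CAV2, LEF1, ETV1, CEACAM5, GATA6, CDKN2A, NTRK2, HOXD1, PPARGC1A, IGF2R, ZC3HAV1L, FAM131A, HLA-F, MT1G, FTX, EPM2AIP1, SLC5A3 and SMOC2, and it was 0.23 for S100A13, which was lower by the probe set used.

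Over the 4461 genes that varied by at least 3 log2 units in the panel, the profile of KM12 correlated most with LS180 (Pearson r = 0.77), SW948 (0.76) and SW1463 (0.73), and least with HUTU80 (0.41) and MDST8 (0.39). The median r of KM12 with the other lines was 0.67, against 0.52 over all 153 pairs. These values are across genes, which are not independent, and all arrays share 1 normalisation.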

How the data were processed

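Total RNA of 18 lines labelled CRC, 1 array each, was measured. The authors deposited log2 intensities made with RMA in affy, per the submitters' processing notes; their versions were not given in the sources used here. The table of 54613 probe sets was used without further normalisation. Of these, 40914 matched 1 gene in the array annotation, 864 several and 12835 none; 40858 of the first had an Entrez ID in RefSeq (GRCh38.p14), used for names, gene order and promoters (those on chromosome 8 left out). The background level is the 95th percentile of 63 probe sets of 44 genes (51 listed). All 30 gene lists and the genes described were chosen with earlier results of these data known. Named genes were the 20 with the widest gap and the 10 with the largest difference in each direction, members of the 3 families with 3 neighbours on each side, genes of runs, 6 members per other list by difference, and the markers; others were named after their values were seen. Groups are single lines, so nothing was tested; array number limits precision. Scripts (Python 3.11.15, numpy 2.4.6, pandas 2.3.3) were tested on simulated data. Some listed genes were not analysed here. Alternatives changed probe set choice, scaling, background, floor, medium, limits, and left out each line; a background of 5 and removal of x_at probe sets were added after the data were seen.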

Additional observations from a re-analysis of the deposited data

How the results depend on the processing

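Averaging all probe sets of a gene gave 174 higher, 130 lower and 15 lowest genes in KM12. Against the 7 other RPMI lines alone, 88 genes were highest and 86 lowest, the metallothionein median was −1.24 and ETV1 reversed to −0.63; fewer lines have to be passed there. A background level of 5 gave 134 lower and 16 lowest genes. Without x_at probe sets, the median was −1.94 for IFITM genes and 0.00 for metallothioneins, with 2 runs, since fewer family members are then read. Limits of 1 and 3 log2 units gave 808 and 121 higher and 842 and 95 lower genes, and gaps of 2 and 3 units gave 9 and 5 highest and 7 and 3 lowest genes. Leaving out each other line in turn gave 244 to 283 higher, 216 to 247 lower, 30 to 34 highest and 25 to 32 lowest genes, 3 to 4 runs, and medians of −1.27 to −1.19 for HOXB, −5.18 to −4.66 for IFITM and −3.80 to −3.32 for metallothionein genes. Of the named differences under the settings other than leaving out a line, 2065 moved by less than 1 SD of the other lines, 112 moved by more and 1 reversed. That SD is the spread between lines, so a gene could lose its call and still count as unmoved. A reversal was counted only for differences of at least 2 units. Smaller ones could change sign uncounted, as CLDN3 did, from −0.98 to 2.07 against the 7 other RPMI lines. No paired analysis was possible because each line has 1 array and no replicate number links lines. Signal near background limits the low values, where a fold is a lower bound.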

Other observations

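The regions and genes given here were chosen after their values were seen. On chromosome 21, from IFNAR2 to MRPS6 and the nearest measured neighbours, 14 of 17 genes compared were below the median of the other lines in KM12, 2 were lower by the limit and KM12 was the bottom line for 6. Over all genes compared KM12 was below the median for 34.0%, above it for 43.2% and the bottom line for 3.87%. The remaining genes were tied, as when both values were raised to background. Most genes of the region were too bright to tie in this way, so the shares below the median are not fully alike. IFNGR2, a chain of the interferon-gamma receptor, was 6.33 in KM12, against 7.70 (HT55), a median of 8.88 and 9.23 (MDST8). IFNAR2, a chain of the type I interferon receptor, was 5.67 in KM12, against 6.46 (HT55), a median of 7.51 and 8.08 (RKO), and SLC5A3, an inositol transporter, was 6.65, against 8.06 (RKO), a median of 9.25 and 10.07 (SNUC1). HT55 was the lowest other line for several of these genes. IFNGR1, the partner of IFNGR2 on another chromosome, was 9.50 in KM12, against a median of 9.22.

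Of 24 genes of glutathione and carbonyl metabolism compared, GSTP1 included, 4 were lower (GSTP1, CBR1, GSTM3 and GSTT1; 1.41% of all genes compared were lower) and 1 was higher (GPX2). GSTM3 was 4.02 in KM12, against 3.64 (HCT116), a median of 8.60 and 11.10 (SNUC1), and GSTT1 was 3.53, against 2.74 (HT55), a median of 5.82 and 8.14 (LS180). For these genes KM12 stood at ranks 14 and 12 of the 18 lines, and a second probe set of each showed a difference of 0. GSTT1 was at or under background in 6 other lines. MGST1, a microsomal transferase, was 12.15 in KM12, against a median of 11.07, and GCLC, the catalytic subunit of the enzyme that starts glutathione synthesis, was 10.46, against 9.40. GSTM2 (4.37, median 5.50) and GSTM1 (4.20, median 5.11) were both at rank 17 of 18 lines, and GSTM4 (4.03, median 4.72) was at rank 15. GSTO1 (10.73, median 10.92) and GPX4 (10.36, median 10.64) were near the panel.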
